A study of Mus musculus with 6 samples.

Results

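The genes described here are 38 listed genes of DNA replication, of the passage through G1 into S phase and of mitosis, measured in cultured C2C12 myotubes. C2C12 is a mouse myoblast line whose cells stop dividing and fuse into multinucleated myotubes when serum is lowered. A gene was taken where the platform annotation gave it a probe set tied to a single gene symbol, and where it had several, the brightest on average stood for it. This held for 37 of the 38 listed genes, out of 19938 genes named in this way on the array, and Ccnb1 had no such probe set and was not analysed here. By role, 14 of the 37 act in replication, 6 regulate the passage from G1 into S phase and 17 act in mitosis.

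The study set Plin2 siRNA against scrambled siRNA, each at 10 nM, in C2C12 myotubes differentiated in 2% serum after growth in 10% serum. Plin2 encodes perilipin 2, a protein that coats lipid droplets, and the series asks about its knockdown in muscle cells loaded with fatty acids. With each siRNA, cells received for 20 h either BSA (albumin) alone or 200 µM of oleate or palmitate carried on it, which gives 6 conditions. Each condition has 1 array, so the effect of the siRNA was measured in 3 pairs of arrays (BSA, oleate, palmitate) and the effect of a fatty acid in 2. All 6 groups are the same transfected cell line, and the labels leave unsaid whether they come from separate cultures. The p-values therefore do not rest on repeats of a condition. They rest in part on how far a gene's siRNA change varied between the 3 treatments, with 2 residual degrees of freedom. The larger part is a variance shared with probe sets of similar level, with 9.21 prior degrees of freedom. The spread between treatments may be technical.

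A dividing cell loads the MCM helicase onto its origins with the help of Cdc6 and Cdt1, copies its DNA in S phase, and then switches to a mitotic program run by Cdk1, Aurora and Polo kinases. Transcription follows the same order. Genes of S phase are driven by E2F factors once cyclin D and cyclin E kinases inactivate the retinoblastoma protein, and genes of mitosis are driven later by the MuvB complex with B-Myb and FoxM1. Differentiating myoblasts leave the cycle for good, and cyclin D3 is the D-type cyclin known to accumulate while they do.

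The values are log2 expression after RMA, the authors' background correction, normalization and probe summary. The 6 arrays correlated at 0.995 to 0.997 within an siRNA and at 0.989 to 0.993 between siRNAs, over 21789 named probe sets. Plin2 stood at 6.95, 7.63 and 7.45 with Plin2 siRNA in BSA, oleate and palmitate, against 9.29, 10.03 and 10.10 with scrambled siRNA. It fell by 2.47 on the log2 scale (SE 0.08, limma adjusted p = 2.3e-08), the direction its label gives. The list of contractile and differentiation genes, which mark myotubes, had median levels of 10.81 to 11.29 over the 6 arrays. Levels of different probe sets are not comparable, so these values alone do not establish the cell type, which is taken from the labels.

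With Plin2 siRNA, 19 of the 37 cell cycle genes fell, 1 rose and 17 did not pass the threshold. The threshold was an adjusted p of 0.05 in a limma fit with siRNA and treatment as terms, adjusted over all named probe sets. Over all named genes, 8.8% fell and 8.31% rose by the same rule, 17.1% in all. The median change of the 37 genes was -0.29 on the log2 scale, beside 0.00 for all named genes, and 34 of the 37 had a fitted change below 0, beside 48.8% of all named genes. In 23 of the 37, all 3 Plin2 siRNA arrays lay below all 3 scrambled arrays, and in 1 they lay above. Such a separation downwards was found in 15% of all named genes and upwards in 15.3%. The largest change on the log2 scale was that of Mcm6, which fell by 46.4% in linear terms. Because these are bulk samples, fewer dividing cells and less of each mRNA per cell cannot be told apart.

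**Figure D1:**
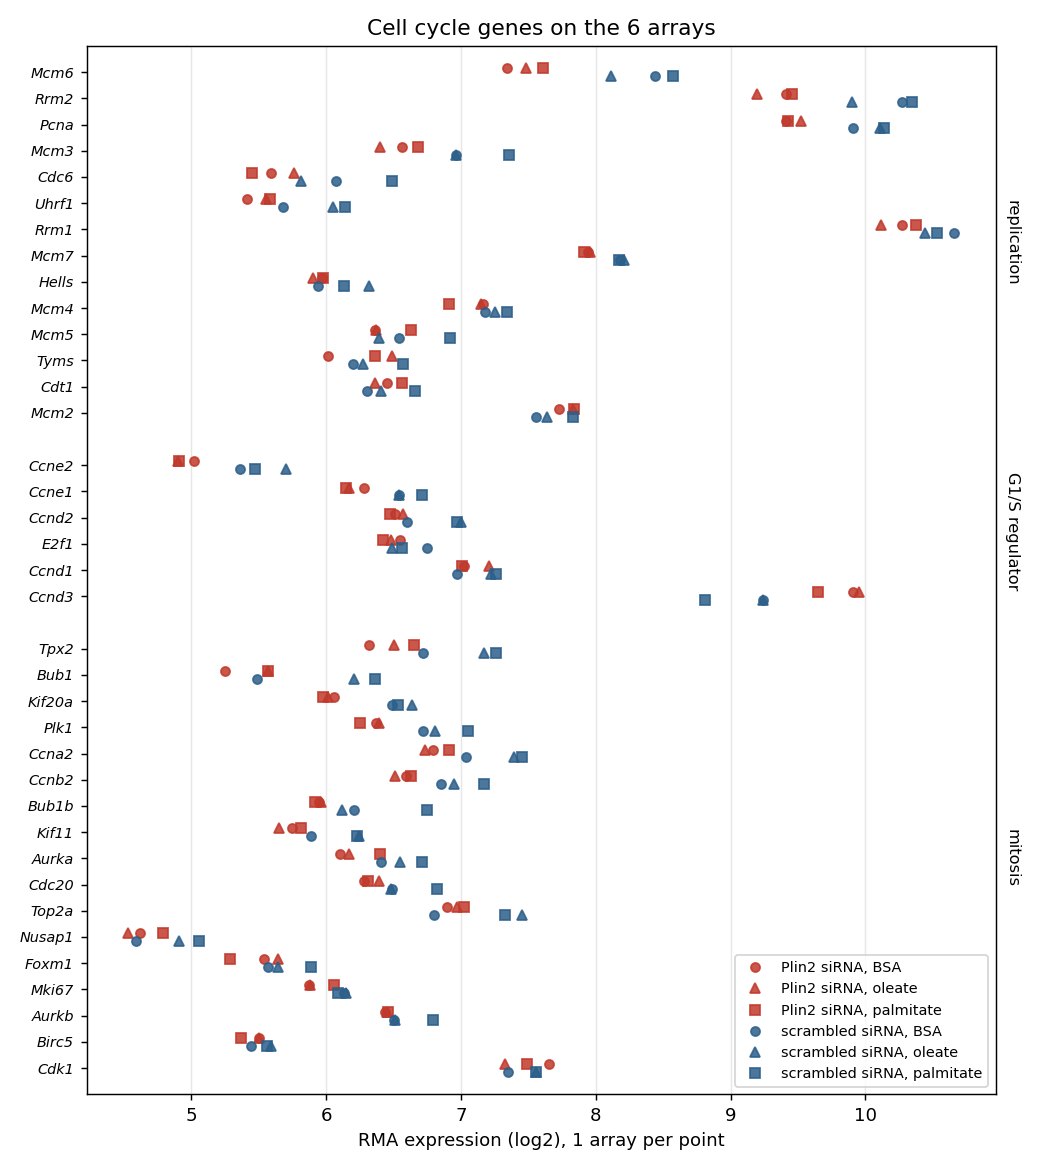
RMA expression (log2, horizontal axis) of the 37 cell cycle genes, with 1 point for each array, red for Plin2 siRNA and blue for scrambled siRNA, and the shape of a point giving the treatment. Levels of different genes come from different probes and are not comparable across rows. Red lies left of blue without overlap in 23 rows, and right of blue in 1, Ccnd3.

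Over the 37 genes the median difference was -0.23 for the BSA pair, -0.37 for the oleate pair and -0.43 for the palmitate pair, where the medians over all named genes were 0.02, 0.03 and -0.04. Of the 37 genes, 28 were below 0 in the BSA pair, beside 47.3% of all named genes, 33 in the oleate pair, beside 44.7%, and 35 in the palmitate pair, beside 55.6%. In all 3 pairs 25 were below 0, beside 22.2%. The count of 19 that fell was 12 without the Plin2 siRNA palmitate array and also 12 without the scrambled palmitate array. It was 6 when all probe sets on the array entered the fit and 0 in a paired test per gene without moderation, in which 13 of the 37 had an unadjusted p under 0.05 (35.1%, beside 17.6% of all named probe sets). Of the 20 called genes, 7 kept their call in each of 13 alternative limma fits. They were Mcm3, Mcm6, Pcna, Rrm2, Kif20a and Tpx2, which fell, and Ccnd3, which rose.

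Among the 14 replication genes, 8 fell and 0 rose, beside 8.8% and 8.31% of all named genes. The median change was -0.27, with a range of -0.90 to 0.12. Pair by pair, the median was -0.25 (BSA), -0.28 (oleate) and -0.35 (palmitate). The fall was uneven even within the MCM complex, the ring of 6 subunits that unwinds DNA at the fork. Mcm6 stood at 7.34, 7.48 and 7.61 with Plin2 siRNA in BSA, oleate and palmitate, against 8.44, 8.11 and 8.57 with scrambled siRNA, a change of -0.90 (SE 0.10, adjusted p = 7.4e-05). Mcm3 stood at 6.56, 6.40 and 6.68, against 6.96, 6.96 and 7.36 with scrambled siRNA (-0.55, SE 0.10, adjusted p = 0.0022). Neither gene's groups overlapped. Mcm7 had the smallest called fall of the class, with little spread between arrays, at 7.94, 7.96 and 7.91 with Plin2 siRNA, against 8.18, 8.21 and 8.17 (-0.25, SE 0.07, adjusted p = 0.0412). The other subunits did not pass. Mcm2 stood at 7.73, 7.83 and 7.84 with Plin2 siRNA and 7.56, 7.64 and 7.83 with scrambled siRNA, with a 95% confidence interval of -0.06 to 0.30 for the change, Mcm4 at -0.18 (interval -0.40 to 0.04) and Mcm5 at -0.16 (interval -0.38 to 0.06).

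Cdc6, which recruits the helicase, stood at 5.59, 5.76 and 5.45 with Plin2 siRNA, against 6.07, 5.81 and 6.49 with scrambled siRNA (-0.53, SE 0.16, adjusted p = 0.0407). Its pairs differed widely, at -0.49 in BSA, -0.06 in oleate and -1.04 in palmitate. Cdt1, its partner, averaged 6.46 ± 0.10 with Plin2 siRNA and 6.46 ± 0.19 with scrambled siRNA (SD, n = 3 arrays each), with an interval of -0.22 to 0.22 for the change.

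Ribonucleotide reductase, which makes the deoxynucleotides for DNA synthesis, and the polymerase clamp were lower in every Plin2 siRNA array. Rrm2, the subunit that limits the enzyme in S phase, stood at 9.41, 9.20 and 9.46 with Plin2 siRNA, against 10.27, 9.90 and 10.35 with scrambled siRNA (-0.82, SE 0.07, adjusted p = 9.5e-06). Its partner Rrm1 had 10.27, 10.12 and 10.38, against 10.66, 10.44 and 10.53 with scrambled siRNA (-0.29, SE 0.07, adjusted p = 0.0103). Pcna, the sliding clamp of the replicative polymerases, had 9.41, 9.52 and 9.43, against 9.91, 10.11 and 10.14 (-0.60, SE 0.07, adjusted p = 9.4e-05). A second probe set of Pcna gave -0.59. Tyms, which makes thymidylate, did not pass, at 6.01, 6.49 and 6.36 with Plin2 siRNA and 6.20, 6.27 and 6.57 with scrambled siRNA (interval -0.31 to 0.19). Of the genes that keep DNA methylation and chromatin through replication, Uhrf1 fell (-0.44, SE 0.11, adjusted p = 0.0172) and the helicase Hells was at -0.18 (interval -0.43 to 0.07).

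Several of these calls were lost when 1 array was left out. In such a fit the other array of its pair no longer informs the siRNA change, so fewer pairs remain. The change of Mcm7 itself stayed at -0.25 to -0.24 in these fits. Mcm7 lost its call without any 1 of the 6 arrays (adjusted p 0.0849 without Plin2 siRNA palmitate to 0.196 without scrambled BSA). Cdc6 lost it without Plin2 siRNA BSA (0.0757), scrambled BSA (0.0784), Plin2 siRNA palmitate (0.218) or scrambled palmitate (0.229), Rrm1 without Plin2 siRNA BSA (0.15) or scrambled BSA (0.152), and Uhrf1 without Plin2 siRNA palmitate (0.0591) or scrambled palmitate (0.0622). The count of replication genes that fell was 5 without either BSA array and 5 without either palmitate array.

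The promoters of the replication genes with the largest falls are shown because the classes differ in sequence, a property the choice of genes did not use. The windows are 300 bases long, 250 before to 50 after a gene's start, from RefSeq on GRCm38.p6, written 5′ to 3′ on the gene's strand. Capitals mark matches on either strand to 3 kinds of motif. The E2F-type core was searched as TTCCCGC and in the variant forms that read TTGGCGC, that read TTCGCGC and that read TTGCCGC. The core of the cell cycle homology region, CHR, was searched as TTTGAA and in the form that reads TTCGAA, and the box bound by NF-Y as CCAAT. An NF-Y box can overlap an E2F-type match that begins with TTGG on the other strand. Mcm6 is at chr1:128359656-128359955 on the minus strand, Rrm2 at chr12:24708004-24708303 on the plus strand and Pcna at chr2:132253131-132253430 on the minus strand.
Mcm6: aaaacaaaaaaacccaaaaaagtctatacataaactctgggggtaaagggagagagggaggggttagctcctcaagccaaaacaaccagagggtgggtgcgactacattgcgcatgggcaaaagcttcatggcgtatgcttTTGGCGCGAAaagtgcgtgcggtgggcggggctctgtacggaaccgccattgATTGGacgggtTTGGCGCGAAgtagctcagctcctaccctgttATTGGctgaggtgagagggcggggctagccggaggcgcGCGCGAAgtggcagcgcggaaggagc
Rrm2: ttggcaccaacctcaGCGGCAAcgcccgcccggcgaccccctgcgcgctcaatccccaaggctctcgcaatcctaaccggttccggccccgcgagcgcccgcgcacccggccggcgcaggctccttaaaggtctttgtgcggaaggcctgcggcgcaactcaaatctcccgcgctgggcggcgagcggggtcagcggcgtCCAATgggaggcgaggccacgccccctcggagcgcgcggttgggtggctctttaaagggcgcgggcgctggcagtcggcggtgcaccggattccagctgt
Pcna: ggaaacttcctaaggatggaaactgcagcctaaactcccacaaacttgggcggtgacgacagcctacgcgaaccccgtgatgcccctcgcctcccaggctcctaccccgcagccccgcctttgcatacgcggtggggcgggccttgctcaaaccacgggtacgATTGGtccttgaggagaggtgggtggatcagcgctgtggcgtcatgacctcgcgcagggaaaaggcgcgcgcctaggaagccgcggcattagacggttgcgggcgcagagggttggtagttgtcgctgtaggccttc
The Mcm6 window holds 5 E2F-type matches, some of which overlap on opposite strands, and 2 NF-Y boxes. Rrm2 has 1 E2F-type match, far upstream, and 1 NF-Y box, and Pcna has 1 NF-Y box and no match to the E2F-type letters searched.

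The 6 regulators of the G1 to S passage split. Cyclins E fell and cyclin D3 rose, and the other members either fell weakly or did not pass. Ccnd3 stood at 9.91, 9.95 and 9.65 with Plin2 siRNA, against 9.24, 9.24 and 8.81 with scrambled siRNA, a rise of 0.74 (SE 0.07, adjusted p = 2.3e-05). Every Plin2 siRNA array lay above every scrambled one, and it was the 1 gene of the 37 that rose. Ccne2 stood at 5.02, 4.90 and 4.91, against 5.36, 5.70 and 5.47 with scrambled siRNA (-0.57, SE 0.12, adjusted p = 0.00778). Ccne1 had 6.28, 6.17 and 6.15, against 6.54, 6.54 and 6.71 (-0.40, SE 0.10, adjusted p = 0.0199). These cyclins activate Cdk2 at the start of S phase, and neither gene's groups overlapped. Ccnd2 fell by 0.34 (SE 0.11, adjusted p = 0.0479), from pairs of -0.09, -0.43 and -0.50. Ccnd1, at 7.02, 7.21 and 7.01 with Plin2 siRNA and 6.97, 7.22 and 7.26 with scrambled siRNA, was not called (interval -0.28 to 0.13), nor was E2f1, the factor that drives S phase genes, at -0.11 (interval -0.32 to 0.10). Ccnd2 lost its call without Plin2 siRNA oleate (adjusted p = 0.117), scrambled oleate (0.124), Plin2 siRNA palmitate (0.176) or scrambled palmitate (0.182), and Ccne1 without Plin2 siRNA palmitate (0.0815) or scrambled palmitate (0.0864).

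**Figure D2:**
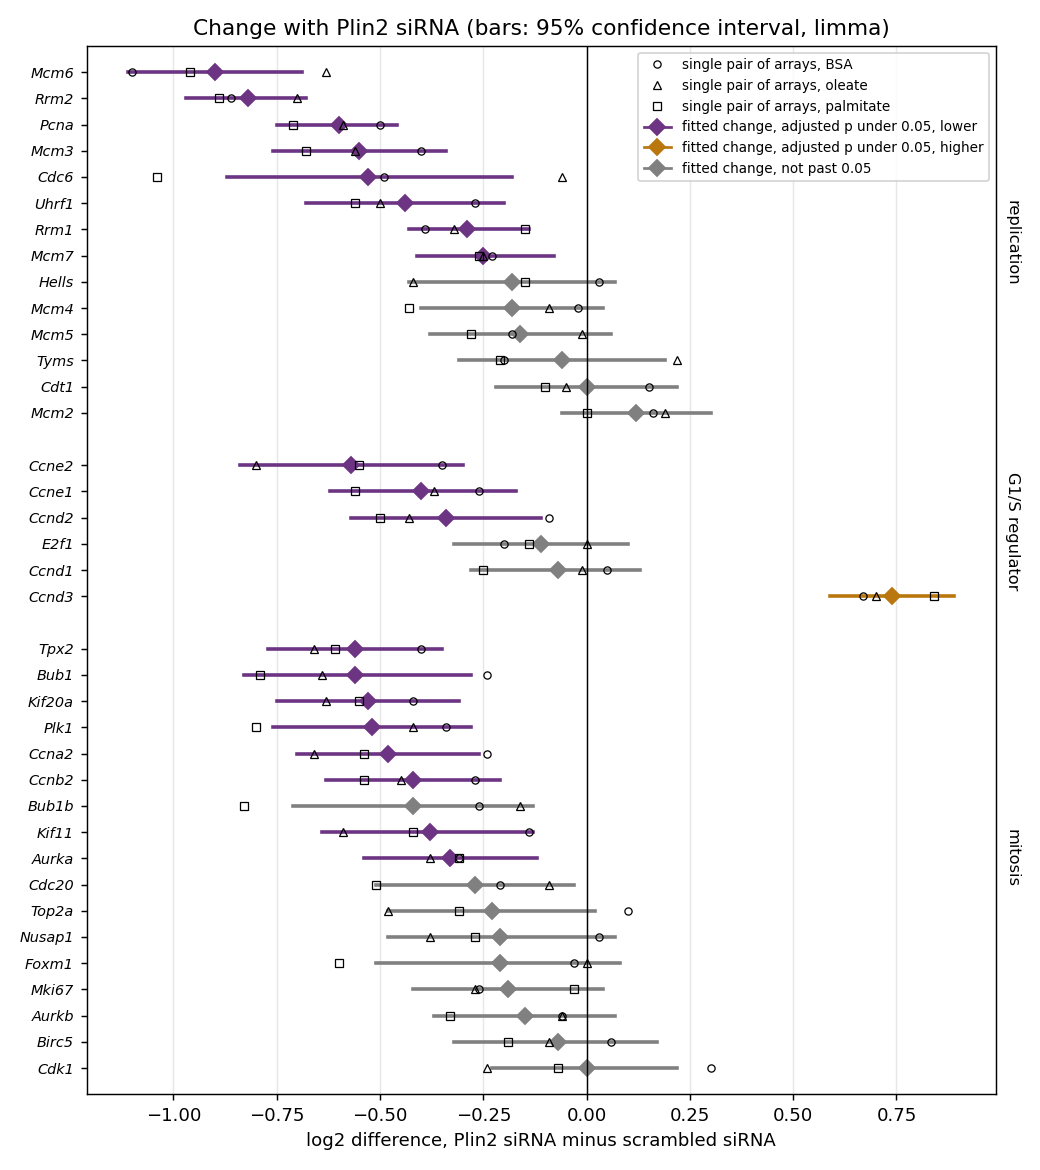
Log2 difference of Plin2 siRNA minus scrambled siRNA for each of the 37 genes, ordered by size within a class. Diamonds and bars are the limma change and its 95% confidence interval, coloured by call, and open symbols are the 3 single pairs of arrays. The 8 called falls in replication reach -0.90, the 8 in mitosis reach -0.56, and Ccnd3 lies alone at 0.74.

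Among the 17 mitosis genes, 8 fell and 0 rose, beside 8.8% and 8.31% of all named genes. The median change was -0.33, with a range of -0.56 to 0.00. Each of the 17 had a fitted change at or below 0, but Cdk1, at -0.00, was above 0 in some alternatives. It was at 0.02 after median centring, 0.11 without either oleate array and 0.03 without either palmitate array. By treatment, the class median was -0.24 (BSA), -0.38 (oleate) and -0.51 (palmitate). Tpx2, which builds spindle microtubules around chromosomes, stood at 6.32, 6.50 and 6.65 with Plin2 siRNA, against 6.72, 7.17 and 7.26 with scrambled siRNA (-0.56, SE 0.10, adjusted p = 0.00196). Kif20a, a kinesin of the late spindle, had 6.06, 6.01 and 5.98, against 6.49, 6.64 and 6.53 (-0.53, SE 0.10, adjusted p = 0.00337). In both genes the groups were apart in every array. Kif11, the kinesin that separates spindle poles, fell by 0.38 (SE 0.12, adjusted p = 0.0432), and Nusap1, which bundles spindle microtubules, was at -0.21 (interval -0.48 to 0.07).

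Ccna2, the cyclin of S phase and early mitosis, had 6.79, 6.73 and 6.91 with Plin2 siRNA, against 7.04, 7.39 and 7.45 with scrambled siRNA (-0.48, SE 0.10, adjusted p = 0.00628). Ccnb2 had 6.59, 6.51 and 6.63, against 6.85, 6.95 and 7.17 (-0.42, SE 0.10, adjusted p = 0.0107). Plk1, the Polo kinase, had 6.37, 6.39 and 6.25, against 6.72, 6.81 and 7.05 (-0.52, SE 0.11, adjusted p = 0.00656). All 3 genes were separated between the siRNAs, with the widest gap in palmitate for Ccnb2 and Plk1 and in oleate for Ccna2. Aurka, the kinase of the spindle poles, fell by 0.33 (SE 0.10, adjusted p = 0.0333). The kinase gene Cdk1 itself showed no such gap, with 7.49 ± 0.16 for Plin2 siRNA and 7.49 ± 0.12 for scrambled siRNA (SD, n = 3 arrays each) and an interval of -0.23 to 0.22. Aurkb (-0.15, interval -0.37 to 0.07) and its partner Birc5, survivin (-0.07, interval -0.32 to 0.17), were not called either.

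The spindle checkpoint gene Bub1 stood at 5.25, 5.57 and 5.57 with Plin2 siRNA, against 5.49, 6.21 and 6.36 with scrambled siRNA (-0.56, SE 0.13, adjusted p = 0.00988). Its groups overlapped, because scrambled BSA lay below the fatty acid arrays of Plin2 siRNA. Bub1b, its relative, had 5.95, 5.96 and 5.92, against 6.21, 6.12 and 6.75, and missed the threshold at an adjusted p of 0.0504 (-0.42, SE 0.13). Cdc20, which starts anaphase, was at -0.27 (SE 0.11, adjusted p = 0.122) with groups that did not overlap. Mki67, the proliferation marker Ki-67, had 5.87, 5.88 and 6.06 with Plin2 siRNA and 6.13, 6.15 and 6.09 with scrambled siRNA, and was not called (-0.19, interval -0.42 to 0.04). Top2a, the topoisomerase that untangles chromosomes, was at -0.23 (interval -0.48 to 0.02), and the mitotic factor Foxm1 at -0.21 (interval -0.51 to 0.08). A second, dimmer probe set of Top2a gave 0.15 (adjusted p = 0.477).

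Aurka lost its call without any 1 of the 6 arrays (adjusted p 0.0561 without Plin2 siRNA palmitate to 0.15 without scrambled BSA), and Kif11 without Plin2 siRNA oleate (0.221), scrambled oleate (0.235), Plin2 siRNA palmitate (0.0981) or scrambled palmitate (0.101). Without Plin2 siRNA oleate or scrambled oleate, Bub1b passed (0.00181 and 0.00189), as did Cdc20 (0.0487 and 0.0499).

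The promoters of the mitosis genes with the largest falls that have a window in the RefSeq table are shown for comparison. The capitals have the same meaning as above. Bub1 is at chr2:127831810-127832109 on the minus strand, Plk1 at chr7:122159185-122159484 on the plus strand and Ccnb2 at chr9:70421505-70421804 on the minus strand.
Bub1: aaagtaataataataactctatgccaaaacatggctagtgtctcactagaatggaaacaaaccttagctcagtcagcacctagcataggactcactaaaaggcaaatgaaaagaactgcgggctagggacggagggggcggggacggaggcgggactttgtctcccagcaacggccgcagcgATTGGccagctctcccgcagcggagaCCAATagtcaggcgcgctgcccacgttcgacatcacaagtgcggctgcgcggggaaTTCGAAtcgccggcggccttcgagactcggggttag
Plk1: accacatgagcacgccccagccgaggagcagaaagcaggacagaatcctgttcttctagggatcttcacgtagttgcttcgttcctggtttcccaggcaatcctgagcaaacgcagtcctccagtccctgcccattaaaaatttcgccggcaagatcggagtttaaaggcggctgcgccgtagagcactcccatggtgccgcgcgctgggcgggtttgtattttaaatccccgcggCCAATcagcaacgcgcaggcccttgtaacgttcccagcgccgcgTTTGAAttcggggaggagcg
Ccnb2: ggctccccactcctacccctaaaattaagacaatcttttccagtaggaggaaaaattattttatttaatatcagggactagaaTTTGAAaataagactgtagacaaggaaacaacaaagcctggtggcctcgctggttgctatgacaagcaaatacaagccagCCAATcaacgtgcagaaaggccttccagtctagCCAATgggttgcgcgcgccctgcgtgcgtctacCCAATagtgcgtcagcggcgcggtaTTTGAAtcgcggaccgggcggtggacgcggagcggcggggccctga
All 3 windows hold a CHR core just downstream of the start, with NF-Y boxes upstream of it, and none of them has an E2F-type match. Ccnb2 has 2 CHR cores and 3 NF-Y boxes, Bub1 has 1 CHR core and 2 NF-Y boxes, and Plk1 has 1 of each.

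Windows were at hand for 29 of the 38 listed genes, and Mcm4, Aurkb, Ccna2, Ccnd1, Ccnd2, Ccne2, Foxm1, Kif20a and Tpx2 had no entry. The 13 mitosis genes with a window include Ccnb1, which had no probe set. E2F-type cores were found in 10 of 13 replication genes and 3 of 13 mitosis genes, beside 10.9% of the 27025 genes in the table. For CHR cores the order was opposite, with 2 of 13 replication genes and 10 of 13 mitosis genes, beside 21.7%. NF-Y boxes were found in 9 of 13 replication genes and 11 of 13 mitosis genes, beside 41.1%. The same letters were counted by siRNA call. Of the genes that fell, 7 of 14 had an E2F-type core and 6 of 14 a CHR core. Of the genes not called, 5 of 13 and 6 of 13 had one. NF-Y boxes were found in 12 of 14 genes that fell and in 7 of 13 not called. These differences by call were not tested. Neither of the 2 windows of Ccnd3, the gene that rose, held an E2F-type or CHR core. A match is a run of letters and was not tested as a binding site.

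**Figure D3:**
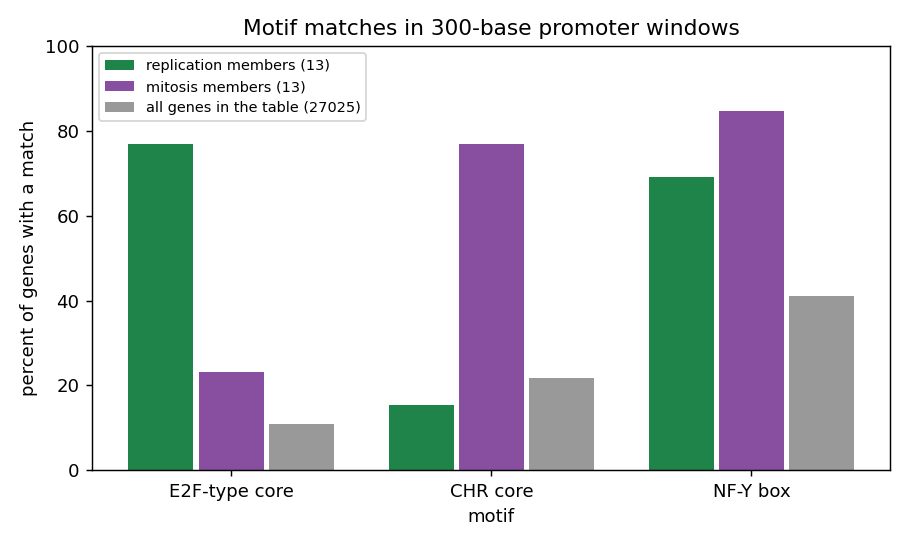
Percent of genes (vertical axis) whose 300-base promoter window holds an E2F-type core, a CHR core or an NF-Y box, for 13 replication genes (green), 13 mitosis genes (purple) and 27025 genes of the RefSeq table (grey). The E2F-type core stands at 76.9% for replication and 23.1% for mitosis, and the CHR core at 15.4% and 76.9%.

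The share that fell was 8 of 14 among replication genes and 8 of 17 among mitosis genes, beside 8.8% of all named genes. The median changes were -0.27 for replication and -0.33 for mitosis, beside 0.00 for all named genes. Pair by pair, replication and mitosis stood at -0.25 and -0.24 in BSA, -0.28 and -0.38 in oleate, and -0.35 and -0.51 in palmitate. The SD of the class median over the 3 pairs was 0.05 for replication and 0.14 for mitosis. The difference between the classes was not tested. The individual replication genes spread further, since Mcm6 and Rrm2 fell more than any mitosis gene while Mcm2 and Cdt1 had fitted changes at or above 0 (Cdt1 was at -0.02 after quantile normalization). The SE of a gene's change ran from 0.07 to 0.16, and there were 11 falls among the 19 genes at or above the median level of 6.54 and 8 among the 18 below it.

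Genes of the same processes outside the 38 were taken from lists of related genes. In a list of 21 further genes compiled for origin licensing and firing, 2 fell and 0 rose. They were the helicase cofactor Cdc45 (-0.32) and Cdca7 (-0.37), which is in the list but is not itself an origin factor. In a list of 23 genes compiled for the replicative polymerases and lagging strand, 2 fell and 0 rose. These shares are near the 8.8% of all named genes. The polymerase list also holds Dnmt1, Chaf1a and Chaf1b, genes of DNA methylation and chromatin, which were not called. One of the polymerase and lagging strand genes, the primase subunit Prim1, fell more than any of the 37. It stood at 5.69, 5.83 and 5.78 with Plin2 siRNA, against 6.65, 7.06 and 6.57 with scrambled siRNA (-0.99, SE 0.11, adjusted p = 1.0e-04). The other was the ligase Lig1 (-0.32). Of 9 further genes of nucleotide supply, 2 fell, the pyrimidine enzymes Umps and Ctps (each -0.45), and 0 rose. The median changes of these lists were -0.01, -0.05 and -0.02.

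On the mitotic side, 6 of 18 further kinesins and cytokinesis genes fell and 0 rose, with a median of -0.26. Beside these and the counts below, 8.8% of all named genes fell and 8.31% rose. They included Prc1, which bundles the central spindle, at 6.47, 6.56 and 6.59 with Plin2 siRNA, against 7.39, 7.17 and 7.41 with scrambled siRNA (-0.78, SE 0.10, adjusted p = 1.9e-04), the contractile ring protein Anln (-0.76, SE 0.10, adjusted p = 3.5e-04) and Hmmr (-0.49). Of 21 kinetochore and checkpoint genes, 4 fell and 2 rose, with Cenpf at -0.44, Knstrn at -0.43 and Zwint, which rose, at 0.44. Among 11 condensin and cohesin genes 3 fell, Ncaph2 (-0.39), Ncaph (-0.37) and Smc1a (-0.20), and 0 rose. Some of these calls were lost when 1 array was left out, which also takes its pair out of the siRNA change. The Cdca7 call was lost without either palmitate array (adjusted p up to 0.0894) and the Knstrn call without either BSA array (up to 0.1). Calls were lost without either BSA or either oleate array for Cenpf (up to 0.156), Hmmr (up to 0.254) and Ncaph (up to 0.245), and without any 1 array for Cdc45 (up to 0.169), Lig1 (up to 0.14) and Smc1a (up to 0.298).

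**Figure D4:**
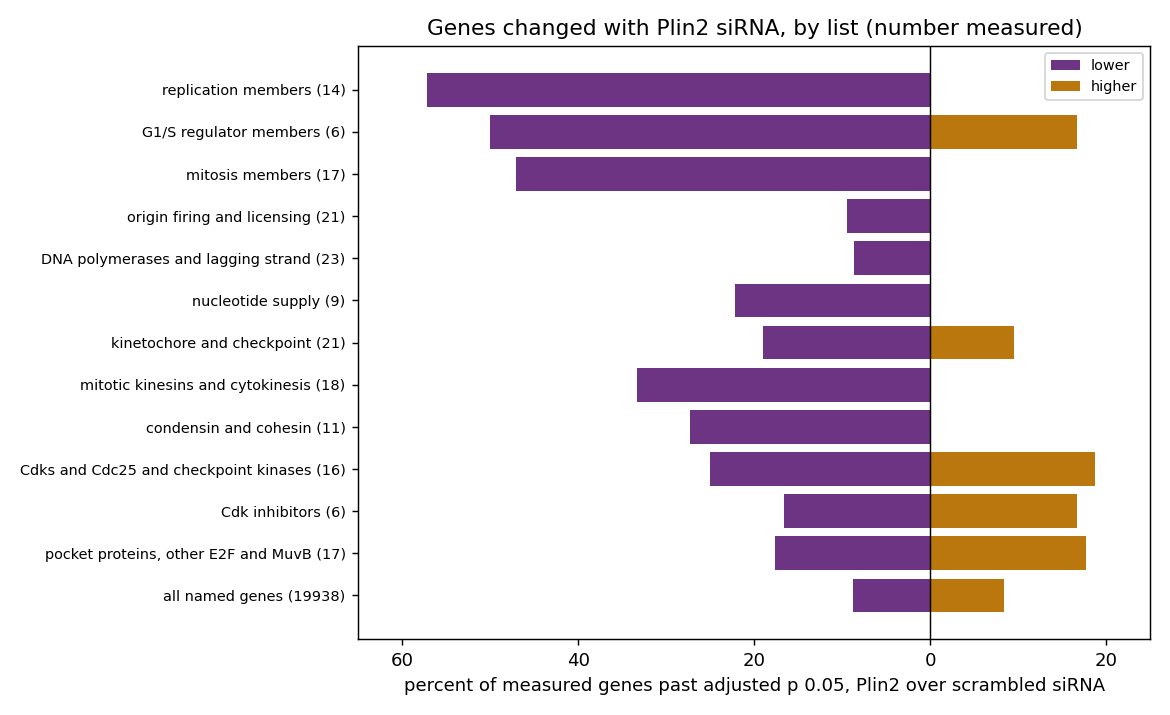
Percent of the measured genes of each list (number in brackets) that passed an adjusted p of 0.05, with falls drawn to the left and rises to the right of 0. The 3 classes of listed genes reach further left than the 8.8% of all named genes, while the further origin and polymerase lists, at 2 of 21 and 2 of 23, lie near it.

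Regulators of the cycle moved in both directions. Of 6 measured Cdk inhibitors, Cdkn1c, p57, fell (8.68, 8.29 and 8.24 with Plin2 siRNA, against 9.27, 8.75 and 8.94 with scrambled siRNA, -0.59, SE 0.07, adjusted p = 2.6e-04). Cdkn1b, p27, rose by 0.25 (SE 0.07, adjusted p = 0.0291), a call lost without either BSA array (adjusted p up to 0.238) or either oleate array (up to 0.0755). Cdkn2a (0.21), Cdkn2b (0.10), Cdkn2c (0.03) and Cdkn2d (-0.14) were not called. Cdkn1a, p21, was also listed but had no probe set tied to a single gene symbol and was not analysed here. Skp2, part of the ligase that degrades p27, rose, at 7.84, 7.60 and 8.04 with Plin2 siRNA, against 7.20, 7.05 and 7.43 (0.60, SE 0.08, adjusted p = 3.7e-04). Among 16 Cdk, Cdc25 and checkpoint genes 4 fell and 3 rose, and the phosphatases that activate Cdks were split, with Cdc25a at -0.55 (adjusted p = 0.00129) and Cdc25b at 0.50 (adjusted p = 0.00347). In the list of pocket proteins, other E2F factors and MuvB, 3 of 17 fell and 3 rose, beside 8.8% and 8.31% of all named genes. E2f8, an atypical E2F that represses transcription, fell (7.03, 6.94 and 6.92 with Plin2 siRNA, against 7.78, 7.72 and 7.59, -0.73, adjusted p = 1.2e-04). E2f2, an activating E2F, also fell (7.55, 7.38 and 7.12, against 8.20, 8.26 and 7.60, -0.67, adjusted p = 4.2e-04), and Tfdp1, the dimer partner of most E2F factors, rose (0.44, SE 0.06, adjusted p = 5.9e-04).

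Markers of muscle differentiation moved in the same contrast, and their part in the cell cycle result was not tested. The differentiation factor Myog stood at 11.41, 11.37 and 11.39 with Plin2 siRNA, against 12.14, 12.04 and 12.08 with scrambled siRNA (-0.69, adjusted p = 6.6e-06), while Myod1, which myoblasts express before they differentiate, rose (0.46, SE 0.05, adjusted p = 1.6e-04). Pax7, of undifferentiated cells, was at 0.20 (adjusted p = 0.126). Of 29 contractile and differentiation markers 13 fell, Casq1 the most (-2.69), and 2 rose, with Mef2c at 1.23. Of 18 myoblast markers 5 fell, with Itga7 at -0.73, and 6 rose, with Id3 at 1.60. Of 10 fibroblast markers 1 fell, S100a4 (-0.47), and 1 rose, Pdgfra (0.36). By the same rule 8.8% of all named genes fell and 8.31% rose, and the fibroblast counts lie near these shares. The median level over the contractile list was 10.81 to 11.02 in Plin2 siRNA arrays and 10.82 to 11.29 in scrambled arrays, that of the myoblast list 9.12 to 9.43 and 8.85 to 9.01, and that of the fibroblast list 7.87 to 8.05 and 8.05 to 8.26. The Pdgfra call was lost without either BSA or either palmitate array (adjusted p up to 0.123).

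Neither fatty acid changed any cell cycle gene past the threshold. With oleate, 0 of the 37 passed in limma and 5 had an unadjusted p under 0.05, where 0.0802% of all named genes passed and 6.22% had such a p. With palmitate, 0 passed and 9 had an unadjusted p under 0.05, beside 0.01% and 5.2% of all named genes. The 2 contrasts share their BSA arrays. The nearest to a palmitate change were Ccnd3, at -0.34 (SE 0.08, n = 2 pairs, adjusted p = 0.687), and Bub1, at 0.60 (SE 0.15, n = 2 pairs, adjusted p = 0.717). Both passed without Plin2 siRNA oleate (adjusted p = 0.0315 and 0.0296) or scrambled oleate (0.0251 and 0.0333). These fits in effect use the 4 BSA and palmitate arrays. They are the fits whose p-values lay on another scale for the siRNA changes, so the passes do not show firmer changes. The median palmitate change of the 37 genes was 0.15, with 29 above 0, beside -0.01 and 47.7% for all named genes. The median oleate change was 0.05, with 27 above 0, beside -0.02 and 44.5%.

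In these single pairs of arrays the median responses differed in size by siRNA, more for palmitate than for oleate. With 1 array per condition, a difference between the siRNAs cannot be told from a shift of 1 array. The median level of the 37 genes was 6.82 in the scrambled palmitate array and 6.37 to 6.55 in the others. In Plin2 siRNA cells the median palmitate response was 0.03, with 22 of 37 genes above 0, and in scrambled cells it was 0.30, with 32 of 37 above 0. Over all named genes 45.9% and 50.8% lay above 0 in the same pairs of arrays. For mitosis genes the medians were 0.04 with Plin2 siRNA and 0.33 with scrambled siRNA, and for replication genes 0.11 and 0.25. The largest single response was that of Bub1 with scrambled siRNA, 0.87, and it was 0.32 with Plin2 siRNA, each a difference of 1 array from 1 array. The contractile list moved in the same arrays, with a median palmitate response of -0.06 with Plin2 siRNA (7 of 29 genes above 0) and -0.31 with scrambled siRNA (0 of 29 above 0), and its part in the cell cycle result was not tested. For oleate, the median was 0.01 with Plin2 siRNA (22 of 37 above 0) and 0.09 with scrambled siRNA (28 of 37 above 0), where 48.6% and 42.7% of all named genes lay above 0.

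These differences were not established gene by gene. In a limma fit with a term for siRNA by palmitate, which leaves 1 residual degree of freedom, 0 of the 37 passed and 4 had an unadjusted p under 0.05, where 0.0401% and 10.2% of all named genes did. The lowest adjusted p was that of Cdc6, 0.314, with an interaction of -0.77, followed by Bub1b (-0.62) and Foxm1 (-0.59). With an interaction of siRNA with fatty acid of either kind, 0 passed and 2, Top2a and Cdk1, had an unadjusted p under 0.05, beside 0% and 2.56% of all named genes. The interaction was below 0 in 31 of the 37 genes for palmitate, beside 55.5% of all named genes, and in 29 for any fatty acid, beside 48.2%.

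**Figure D5:**
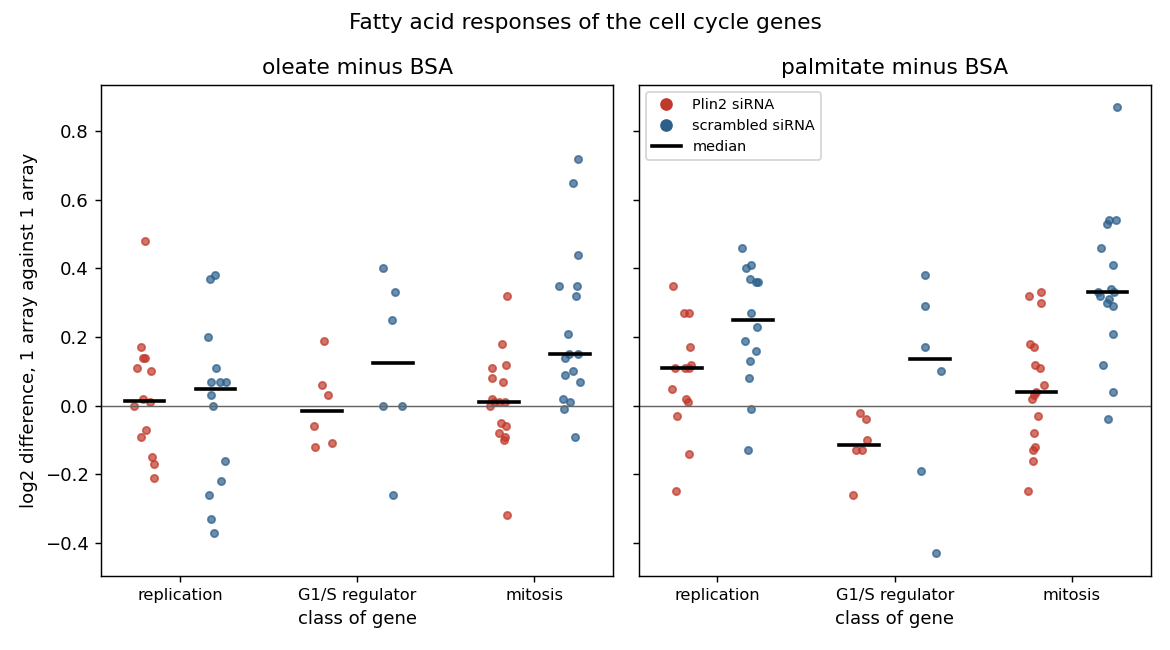
Oleate minus BSA (left) and palmitate minus BSA (right), as log2 differences of 1 array from 1 array, for the genes of each class with Plin2 siRNA (red) and scrambled siRNA (blue), with black bars at the medians. For palmitate, Plin2 siRNA cells have medians of 0.11 in replication and 0.04 in mitosis, and scrambled cells have 0.25 and 0.33.

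Palmitate was also set against oleate at the same dose and time. Palmitate is saturated, and oleate is a longer chain with a cis double bond. Of the 37 genes, 0 passed in limma and 6 had an unadjusted p under 0.05, beside 0.281% and 9.12% of all named genes. The nearest were Ccnd3, lower in palmitate by 0.36 on the log2 scale (-0.36, SE 0.08, adjusted p = 0.141), and Rrm2, at 0.35 (SE 0.08, adjusted p = 0.151). Without Plin2 siRNA oleate the difference was -0.39 for Ccnd3, 0.44 for Rrm2 and 0.49 for Mcm6. Without Plin2 siRNA palmitate it was -0.44 for Ccnd3. Such a fit keeps 1 array of the acid concerned, so only the size of the difference is given. A missed threshold with 2 pairs of arrays does not show that the acids act alike. The 95% intervals of the difference were -0.54 to -0.18 for Ccnd3 and 0.18 to 0.53 for Rrm2.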

How the data were processed

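Total RNA of 6 samples was hybridised to Affymetrix whole-transcript arrays, 1 array per condition. The deposited values are log2 expression per probe set, made by the authors with RMA per the submitters' processing notes, and neither the RMA version nor a genome build is given in the sources used here. Of 35556 probe sets, 21789 had 1 gene symbol in the platform annotation, 1621 had several and 12146 were not listed. The 21789 entered a limma 3.58.1 fit (R 4.3.3; siRNA and treatment as additive terms, eBayes with an intensity trend, 2 residual and 9.21 prior degrees of freedom), with Benjamini-Hochberg adjustment over all of them and a threshold of 0.05. Interaction terms were fitted apart, with 1 residual degree of freedom. The few arrays limit the precision. The members, the other gene lists and the tests were chosen with earlier results of these data known. All members are named, and from each other cell cycle list up to 3 called genes with the largest change and 1 sign in all pairs (up to 2 from each marker list, plus Pax7, Myod1 and Myog), and every measured Cdk inhibitor. Promoter windows and their coordinates are RefSeq's, build GRCm38.p6. Alternatives changed the trend, the probe sets, the low-value filter, the scaling, the treatment term, the moderation and the arrays in the fit.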

Additional observations from a re-analysis of the deposited data

How the results depend on the processing

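The count of named probe sets changed by Plin2 siRNA was 3721, with 19 members lower, 1 higher, and 8 lower in each of replication and mitosis. Counts stayed within 1.5 times of these, and the class medians within the spread between pairs, under quantile normalization, median centring, the mean of a gene's probe sets and the filter on the lowest 33.3% by mean. Without the intensity trend, 2403 probe sets and 5 replication genes passed. With all probe sets in the fit, 1674 probe sets, 6 members, 4 replication and 2 mitosis genes passed. With siRNA alone in the model, 5 mitosis genes passed. In the paired test per gene without moderation, 0 probe sets and 0 members passed, while 3833 probe sets and 13 members had an unadjusted p under 0.05. Leaving out 1 array gave 2213 to 3836 probe sets, 12 to 17 members lower, 5 to 7 replication genes and 6 to 8 mitosis genes. It gave 0 to 2 members changed by palmitate and 0 to 3 different between palmitate and oleate. The cause of these shifts was not tested. Changes near 0 turned sign. Cdt1 was -0.02 with quantile normalization, and Cdk1 was 0.00 there and 0.02 with median centring. Leaving out 1 array, Cdt1 ran from -0.08 (without either BSA array) to 0.05, Tyms from -0.20 to 0.01, Ccnd1 from -0.13 to 0.02, Cdk1 from -0.15 to 0.11 and Cdkn2c from -0.00 to 0.06. No interaction could be estimated without an array, for want of residual degrees of freedom or because the term could no longer be told from the others. Pairs of arrays were matched by treatment only, since the labels give no replicate numbers and each condition has 1 array.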
